A study of Drosophila melanogaster with 4 samples.

Results

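The genes described here encode the core proteins of the microRNA (miRNA) and small interfering RNA (siRNA) pathways of the fruit fly Drosophila melanogaster. They were chosen by name, and all 10 were found among the 15495 rows of the deposited table: drosha, pasha, Ranbp21, Dcr-1, loqs, AGO1 and gw were counted as the miRNA arm (7 genes), and Dcr-2, r2d2 and AGO2 as the siRNA arm (3 genes). RNA was sequenced from intestinal stem cells, the dividing cells of the adult gut epithelium, after flow sorting from pools of 100 dissected guts. The groups were RNA interference (RNAi) against Piwi and, as control, RNAi against the foreign fluorescent protein mCherry, each for 7 days at 29 °C with 2 libraries per group. The source label of the control libraries names yw and that of the others PiwiRNAi. The driver of the constructs, the age and sex of the flies and the relation of the genetic backgrounds are not stated by the labels. By their titles both groups expressed an RNAi construct, and no library without one was available for comparison.

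In the miRNA pathway of flies, Drosha with its double-stranded RNA binding partner Pasha cuts hairpins out of primary transcripts in the nucleus, the exportin encoded by Ranbp21 carries them out, and Dicer-1 with Loquacious trims them to miRNAs that load into AGO1. The GW182 protein, encoded by gw, then joins AGO1 and recruits the enzymes that shorten and decay target messages. The siRNA pathway defends against viruses and transposons. In it, Dicer-2 cuts long double-stranded RNA, R2D2 helps to load the products, and AGO2 slices the matching RNA. RNAi constructs that express long double-stranded RNA rely on this pathway, but the titles do not name the type of construct used here. An isoform of Loquacious also works with Dicer-2, but the table has 1 row per gene and does not separate it.

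All 10 genes had higher FPKM values (a level scaled to the length of the transcript and the size of the library) in each Piwi RNAi library than in either mCherry RNAi library, an order that 6 of the 10 kept once scaled by the median of ratios, and 0 of the 10 passed the test. Over all tested genes, 51.5% also lay higher in both Piwi RNAi libraries, and 1.18% were called at an adjusted p under 0.05 (limma, Benjamini-Hochberg over 8313 genes). At an unadjusted p under 0.05, 6 of the 10 were reached, all on the higher side, where 21.7% of all tested genes were. The log2 differences, Piwi RNAi minus mCherry RNAi on log2(FPKM + 1), ran from 0.34 for drosha to 1.55 for Ranbp21, with a median of 0.95 against 0.37 for all tested genes. Changes are therefore also given relative to 0.37. Ranbp21, r2d2, Dcr-2, Dcr-1, loqs and gw lay 0.58 to 1.19 above it, and drosha, AGO1 and AGO2 within 0.09 of it, with pasha 0.26 above it.

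Several facts of the libraries touch these values. The estimated depth was 1620000 to 2300000 fragments per library. The targeted gene, piwi, was measured at 0.495 (replicate 1) and 1.94 FPKM (replicate 2) under mCherry RNAi and at 0.208 and 0.442 FPKM under Piwi RNAi, about 3 and 12 against 1 and 3 fragments. The stem cell label was checked against 9 marker genes, all detected in at least 1 library, with levels that varied widely. The progenitor factor esg had 239.7 to 415.9 FPKM. Dl had only 3.41 and 3.98 FPKM under mCherry RNAi and 4.49 and 3.55 FPKM under Piwi RNAi, and spdo had 1.73 to 8.46 FPKM. The summed level of the 9 markers was 755.2 to 916.3 FPKM in mCherry RNAi and 1073 to 1075 FPKM in Piwi RNAi. Of these 9 markers, 6 lay higher in both Piwi RNAi libraries, against 51.5% of all tested genes. Only 1, sna, lay lower in both, against 13%. Once scaled by the median of ratios, 3 of the 9 lay higher in both, against 26.7%. Of the 17 enterocyte markers none was at 0 in all libraries, and they summed to 18494 FPKM in mCherry RNAi replicate 1, against 1508 FPKM in replicate 2 and 1826 and 903.8 FPKM in Piwi RNAi. The 14 enteroendocrine markers summed to 1180 and 2932 FPKM under mCherry RNAi against 215.0 and 359.8 FPKM under Piwi RNAi, and npf carried most of the sum in each library. Of the 11 tested, 8 lay lower in both Piwi RNAi libraries, against 13% of all tested genes, and 0 lay higher in both. The 7 hemocyte markers, of which eater and He were at 0, summed to 85.4 and 89.5 FPKM under mCherry RNAi. Under Piwi RNAi they summed to 121.3 and 135.4 FPKM, and crq carried most of the sum in each library. All 3 tested hemocyte markers lay higher in both Piwi RNAi libraries, against 51.5% of all tested genes, and 1 did once scaled by the median of ratios, against 26.7%. The 18 visceral muscle markers summed to 313.7 to 349.9 FPKM, a sum carried by Tm1. The other 17 summed to 150.3 FPKM in mCherry RNAi replicate 1, against 66.4 FPKM in replicate 2 and 72.5 and 50.3 FPKM under Piwi RNAi. The median log2 difference of the 13 tested muscle markers was -1.01, and Mlc1 and wupA were above 0 in mCherry RNAi replicate 1 only. Of the 13, 3 (Tm1, vn and how) lay higher in both Piwi RNAi libraries, against 51.5% of all tested genes. Another 3 lay lower in both, against 13%. The part of these marker genes in the results was not tested. In bulk RNA, fewer cells of a type and less RNA per cell cannot be told apart. Of the 10 machinery genes, 9 had a lower value in mCherry RNAi replicate 1 than in replicate 2, as did 63.7% of all tested genes, so values without replicate 1 are given where they moved most.

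**Figure D1:**
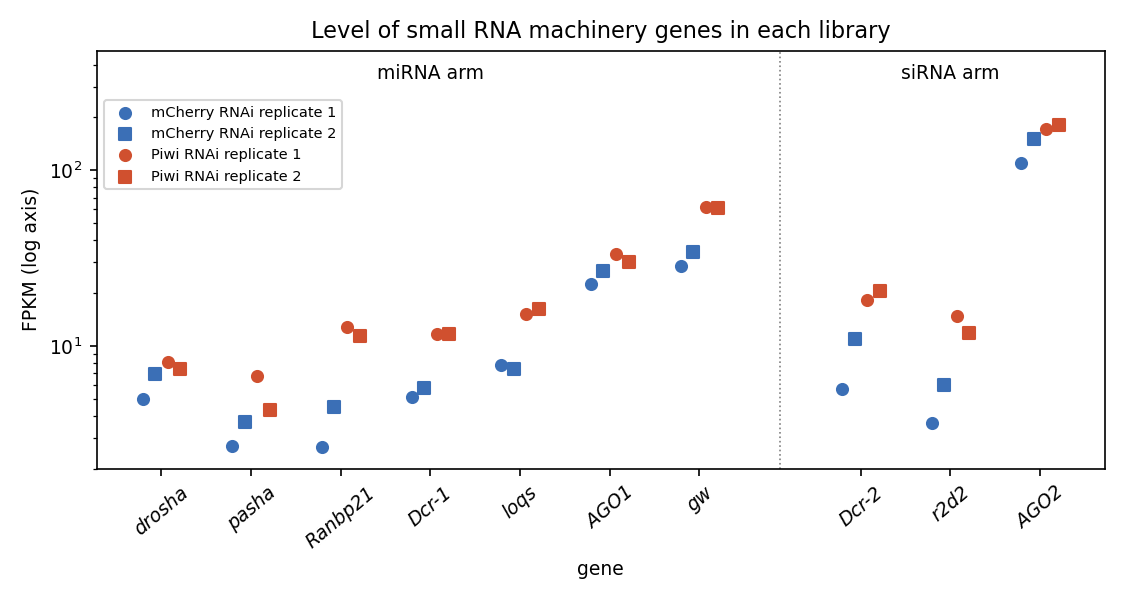
FPKM of each gene in each of the 4 libraries on a log axis, with mCherry RNAi in blue, Piwi RNAi in red, replicate 1 as circles and replicate 2 as squares. For all 10 genes both red points lie above both blue points, as for 51.5% of all tested genes. Once scaled by the median of ratios this held for 6 of the 10, against 26.7% of all tested genes. The gap is narrow for drosha, pasha, AGO1 and AGO2, wider for the other genes and widest for Ranbp21.

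The levels within a group spanned a wide range. AGO2 was the highest of the 10, at 129.6 ± 28.7 FPKM in mCherry RNAi and 176.3 ± 5.81 FPKM in Piwi RNAi (SD, n = 2 per group), at percentiles 93.0 and 94.1 of tested genes by group mean. Next came gw, AGO1, Dcr-2 and loqs, in that order in both groups. In mCherry RNAi, the ranges of AGO2, gw and AGO1 did not overlap with each other or with the others. There, Dcr-2 had a wide range that overlapped loqs and genes below it, and drosha, Dcr-1, r2d2, Ranbp21 and pasha each overlapped the next in that order, so their order is not resolved. In Piwi RNAi, r2d2 overlapped Ranbp21 and Ranbp21 overlapped Dcr-1, while drosha and pasha were the lowest with no overlap between neighbours. Dcr-1, r2d2 and Ranbp21 had 3.55 to 5.42 FPKM on average in mCherry RNAi, below the mean of drosha, and 11.7 to 13.3 FPKM in Piwi RNAi, above it.

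Both nuclear processing genes of the miRNA arm showed small gaps. The RNase III gene drosha (FBgn0026722) had 4.99 FPKM in replicate 1 and 6.95 FPKM in replicate 2 of mCherry RNAi, against 8.07 FPKM in replicate 1 and 7.35 FPKM in replicate 2 of Piwi RNAi. The groups did not overlap, but the gap between 6.95 and 7.35 FPKM was smaller than the gap within mCherry RNAi. Its log2 difference was 0.34 ± 0.29 (SE; adjusted p = 0.446), which put it at percentile 47.9 of all tested genes. It was 0.13 without mCherry RNAi replicate 1 and 0.54 without replicate 2. With 1 annotated transcript of 4290 nt, its values correspond to about 42 and 60 fragments in mCherry RNAi and 54 and 71 in Piwi RNAi. Scaled to depth, Piwi RNAi fragments stood at 1.29 times those of mCherry RNAi, with a 95% interval (exact, Clopper-Pearson) from 0.984 to 1.69, which takes in counting error only.

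The gene of its partner, pasha (FBgn0039861), was the lowest of the 10 in both groups. It had 2.67 and 3.68 FPKM under mCherry RNAi against 6.76 and 4.30 FPKM under Piwi RNAi, about 11 to 30 fragments per library, depending on the library and on which of its 3 annotated transcripts is taken. Piwi RNAi replicate 1 was the high library, and replicate 2 lay closer to mCherry RNAi replicate 2 than to replicate 1 of its own group. The log2 difference was 0.63 ± 0.37 (adjusted p = 0.303), and it was 0.35 without Piwi RNAi replicate 1 and 0.91 without replicate 2. Counting error alone gave an interval of 1.02 to 2.88 for its ratio of 1.70. Like the other counting ratios here, that ratio is as deposited and so holds the shift shared by all tested genes. Once scaled by the median of ratios, the log2 difference of pasha was 0.30 and its groups overlapped.

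Ranbp21 (FBgn0031051), the fly exportin 5 gene, showed the widest gap of the 10. It had 2.65 and 4.45 FPKM under mCherry RNAi against 12.8 and 11.4 FPKM under Piwi RNAi. Both Piwi RNAi values lay far above both controls, and its group means differed 3.41-fold. The log2 difference of 1.55 ± 0.32 lay at percentile 98.0 of all tested genes, with an adjusted p of 0.118 (unadjusted p = 0.005). It was 1.26 without mCherry RNAi replicate 1. Over 14 alternative settings its difference ran from 1.01 to 1.84 and its adjusted p from 0.0902 to 0.549. The gap was wider than counting error, since about 27 and 47 fragments in mCherry RNAi stood against 105 and 133 in Piwi RNAi by its shorter transcript, a ratio of 3.38 with an interval of 2.59 to 4.45. Among tested genes, its group mean lay at percentile 18.6 in mCherry RNAi and at percentile 41.1 in Piwi RNAi.

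Dcr-1 (FBgn0039016), the miRNA-making Dicer, had 5.12 and 5.73 FPKM under mCherry RNAi against 11.7 and 11.6 FPKM under Piwi RNAi. The replicates of each group lay close together, and the group means differed 2.15-fold. Its log2 difference was 0.98 ± 0.24 (adjusted p = 0.139), at percentile 89.1, and it stayed between 0.91 and 1.05 with any 1 library left out. Its single annotated transcript of 6913 nt gave about 71 and 81 fragments in mCherry RNAi and 128 and 182 in Piwi RNAi.

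The gene of its partner, loqs (FBgn0032515), differed by a similar amount. It had 7.75 and 7.40 FPKM under mCherry RNAi against 15.1 and 16.2 FPKM under Piwi RNAi, with a log2 difference of 0.96 ± 0.23 (adjusted p = 0.135). It was the exception to the lower values of mCherry RNAi replicate 1, which here lay slightly above replicate 2. In the annotation used here, 18.3% of its exonic sequence overlaps an antisense RNA gene, asRNA:CR44599, that has no row of its own in the table. Reads of the 2 strands cannot be told apart without the strand setting.

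The miRNA effector gene AGO1 (FBgn0262739) had 22.6 and 26.8 FPKM under mCherry RNAi against 33.3 and 30.1 FPKM under Piwi RNAi. The groups did not overlap and the means differed 1.28-fold. Its log2 difference of 0.35 ± 0.21 (adjusted p = 0.317) was 0.02 below the median of all tested genes, at percentile 48.9. Leaving out mCherry RNAi replicate 1 gave 0.23, and leaving out replicate 2 gave 0.47.

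Its partner gw (FBgn0051992) had a higher level in both groups. It had 28.6 and 34.5 FPKM under mCherry RNAi against 61.9 and 61.2 FPKM under Piwi RNAi, a 1.95-fold difference of means. Both Piwi RNAi values nearly coincided, above both controls. The log2 difference was 0.95 ± 0.20 (adjusted p = 0.126), at percentile 87.9, and it was 0.82 without mCherry RNAi replicate 1. With about 265 to 641 fragments per library by its shortest transcript, the ratio of 1.95 had a counting interval of 1.76 to 2.16, which holds no variation between pools of flies.

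In the siRNA arm, Dcr-2 (FBgn0034246), the Dicer of long double-stranded RNA, had 5.67 and 11.0 FPKM under mCherry RNAi against 18.2 and 20.5 FPKM under Piwi RNAi. The control values lay far apart from each other, and both lay below the Piwi RNAi values. Its log2 difference was 1.19 ± 0.35 (adjusted p = 0.154), at percentile 94.2. Leaving out mCherry RNAi replicate 1 brought it to 0.76 and leaving out replicate 2 to 1.61, so its size rests largely on which control library is used.

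r2d2 (FBgn0031951), the loading partner of Dicer-2, had 3.61 and 5.96 FPKM under mCherry RNAi against 14.7 and 11.8 FPKM under Piwi RNAi. The groups were well apart, with means that differed 2.77-fold. The log2 difference was 1.33 ± 0.32 (adjusted p = 0.138), at percentile 96.4, and it was 1.03 without mCherry RNAi replicate 1. These values rest on few reads, about 7 and 12 fragments in mCherry RNAi and 24 and 27 in Piwi RNAi by its shortest transcript, and the ratio of 2.82 had a counting interval of 1.64 to 5.06. In the annotation, 22.9% of its exonic sequence overlaps Cdc14 on the opposite strand. Cdc14 itself had 7.36 and 8.93 FPKM under mCherry RNAi against 8.83 and 6.12 FPKM under Piwi RNAi, so its groups overlapped.

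AGO2 (FBgn0087035), the slicing Argonaute, had 109.4 and 149.9 FPKM under mCherry RNAi against 172.2 and 180.4 FPKM under Piwi RNAi. The groups did not overlap, and mCherry RNAi replicate 1 was the low library. Its log2 difference was 0.46 ± 0.20 (adjusted p = 0.219), at percentile 57.0, and without mCherry RNAi replicate 1 it was 0.23, which is 0.05 below the median of all tested genes in that fit. AGO2 had the most reads of the 10, about 818 to 1521 fragments per library by its shortest transcript. In the annotation, 7.65% of its exonic sequence overlaps CG7739 on the opposite strand. CG7739 had 12.6 and 19.0 FPKM under mCherry RNAi against 24.5 and 26.7 FPKM under Piwi RNAi, so its groups did not overlap either. Any single overlap with another gene covered at most 2.55% of pasha, AGO1 or Dcr-2, and none was found for drosha, Ranbp21, Dcr-1 and gw.

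**Figure D2:**
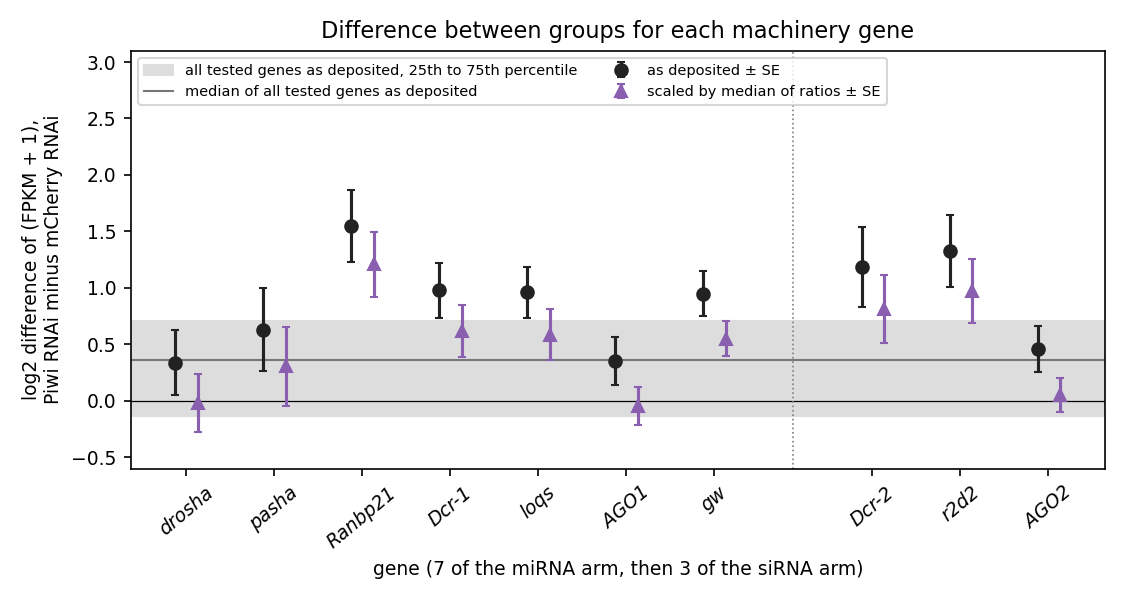
Log2 difference of each gene, Piwi RNAi minus mCherry RNAi, with its standard error, as deposited (black circles) and after scaling by the median of ratios (purple triangles). The grey band and line show the middle of all tested genes as deposited, with a median of 0.37. AGO1, AGO2 and drosha sit on that line and, once scaled, near 0, while Ranbp21, Dcr-1, loqs, gw, Dcr-2 and r2d2 lie above the band as deposited.

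Since the whole distribution was shifted, the values were also scaled by the median of ratios, which brought the median of all tested genes to -0.01. After that scaling 6 of the 10 genes, Ranbp21, Dcr-1, loqs, gw, Dcr-2 and r2d2, still lay higher in both Piwi RNAi libraries, against 26.7% of all tested genes. The other 4 overlapped between groups. Among these, drosha had a log2 difference of -0.02, AGO1 of -0.04, AGO2 of 0.05 and pasha of 0.30, so the sign turned for drosha and AGO1. Scaled AGO1 values were 27.9 and 28.5 in mCherry RNAi and 28.6 and 26.1 in Piwi RNAi, so these groups overlapped. By limma 0 of the 10 passed after scaling, where 0.0957% of all tested genes did, and 5 had an unadjusted p under 0.05, where 7.13% of all tested genes did on the higher side. The largest difference was again that of Ranbp21, at 1.21 ± 0.29.

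Median log2 differences were 0.95 over the 7 miRNA arm genes and 1.19 over the 3 siRNA arm genes, or 0.58 and 0.82 relative to all tested genes. The gap between these medians, miRNA minus siRNA, was -0.24 as deposited and -0.26 after scaling. It was 0.05 without mCherry RNAi replicate 1 and -0.68 without replicate 2, so its direction rested on the former. By library, the median level of the miRNA arm was 5.12 and 6.95 FPKM under mCherry RNAi against 12.8 and 11.6 FPKM under Piwi RNAi. For the siRNA arm it was 5.67 and 11.0 FPKM, then 18.2 and 20.5 FPKM, the values of Dcr-2, its middle gene. Single genes ran from 0.34 to 1.55 in the miRNA arm and from 0.46 to 1.33 in the siRNA arm. The Argonaute gene of each arm lay near the median of all genes, and the Dicer gene and its double-stranded RNA binding partner lay higher in each arm. This division was noticed after the values were seen and was not tested.

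Ratios between counterpart genes within a library do not change when all of its values are multiplied by 1 factor, apart from the pseudocount. The log2 ratio of Dcr-1 to Dcr-2 was -0.12 and -0.83 in mCherry RNAi and -0.60 and -0.76 in Piwi RNAi, so the Piwi RNAi values lay between the control values. Group means differed by -0.21 ± 0.36 (SE, Piwi RNAi minus mCherry RNAi), and the difference was 0.15 without mCherry RNAi replicate 1 and -0.56 without replicate 2. For AGO1 to AGO2 the ratio was -2.22 and -2.44, then -2.34 and -2.55, a difference of -0.11 ± 0.15. Quantile normalization, which is not a single factor, brought that difference to -0.26, with no overlap between the groups and an exact permutation p of 0.333. With 1 library left out it ran from -0.22 to 0 after rounding, the latter without mCherry RNAi replicate 1. In FPKM, AGO1 stood at 0.167 to 0.207 times the level of AGO2 in all 4 libraries, the tightest of the 3 ratios. The ratios differ in counting error, whose part was not tested. By the shortest transcript AGO1 had about 155 to 233 fragments per library and AGO2 818 to 1521. Dcr-1 had 71 to 182, Dcr-2 64 to 262, loqs 19 to 45 and r2d2 7 to 27. For loqs to r2d2 the ratio was 0.92 and 0.27, then 0.04 and 0.43, a difference of -0.37 ± 0.38, which was -0.04 without mCherry RNAi replicate 1 and -0.69 without replicate 2. As deposited, the groups overlapped in each of the 3 ratios, with two-sided exact permutation p of 1, 0.667 and 0.667 and an adjusted p of 1 for each. With 2 libraries against 2 the smallest p possible is 0.333, so these tests cannot show a difference, nor that there is none.

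**Figure D3:**
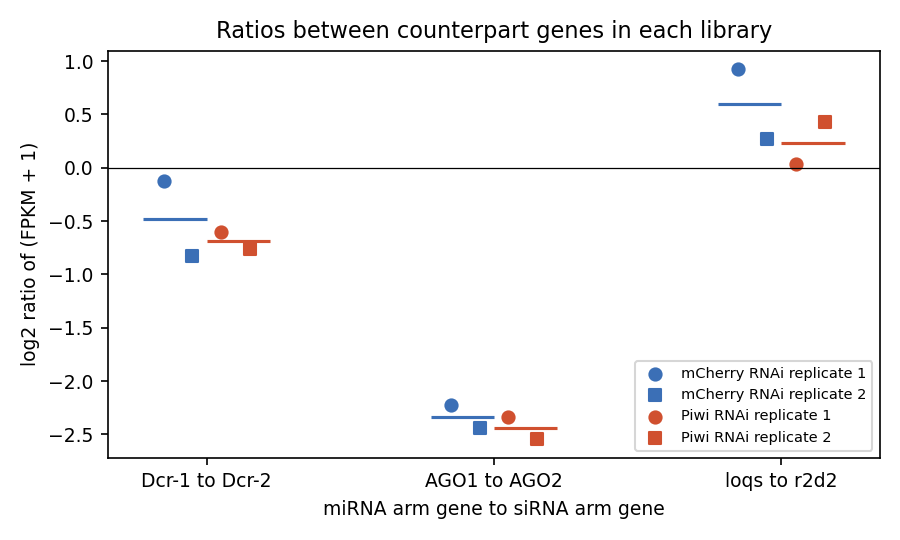
Log2 ratio of each miRNA arm gene to its siRNA arm counterpart in each library, with group means as bars, mCherry RNAi in blue and Piwi RNAi in red. As deposited, values of the groups overlap in all 3 ratios, and the AGO1 to AGO2 ratio varies least, from -2.22 to -2.55.

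Further genes of the same pathways were read from 4 lists with 36 tested genes, of which 0 passed by limma and 20 had an unadjusted p under 0.05, all 20 on the higher side. Over all tested genes these shares were 1.18% and, on the higher side, 21.7%. Of the 36, 29 lay higher in both Piwi RNAi libraries, against 51.5% of all tested genes, and 1 lay lower in both, as 13% of all tested genes did. After scaling by the median of ratios 16 lay higher in both, against 26.7%, with 0 calls against 0.0957%, and 8 had an unadjusted p under 0.05, of which 5 were on the higher side, against 7.13%. Their median log2 difference was 0.60 as deposited and 0.21 after scaling, and the values below are as deposited, with the shift of 0.37 shared by all tested genes.

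Among the 5 tested genes of miRNA processing and trimming, the median was 0.62. The largest difference, 0.97, was that of Cbp80, a subunit of the nuclear cap-binding complex, with 14.1 and 21.6 FPKM under mCherry RNAi against 40.4 and 30.6 FPKM under Piwi RNAi. The smallest, 0.33, was that of CG1091, the uridylyl transferase Tailor, which adds tails to certain hairpins and whose groups overlapped.

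Silencing effectors that act downstream of GW182, in deadenylation, decapping and decay, numbered 16 and had a median of 0.60. Of these, 14 lay higher in both Piwi RNAi libraries, against 51.5% of all tested genes. Once scaled by the median of ratios, 7 did, against 26.7%. Dcp1, the activating subunit of the decapping enzyme, had 6.09 and 7.58 FPKM under mCherry RNAi against 19.8 and 20.3 FPKM under Piwi RNAi. Its groups were far apart, and its log2 difference of 1.43 ± 0.24 was the largest of the list (adjusted p = 0.0855). At the other end stood CG11486, the poly(A) nuclease subunit PAN3, with 164.9 and 130.9 FPKM under mCherry RNAi against 111.1 and 120.8 FPKM under Piwi RNAi (its log2 difference was -0.34; adjusted p = 0.277). It was the 1 gene of the 36 that lay lower in both Piwi RNAi libraries.

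Of the 10 tested siRNA loading factors and partners, 7 lay higher in both Piwi RNAi libraries, against 51.5% of all tested genes. Once scaled by the median of ratios, 5 did, against 26.7%. The median as deposited was 0.59. The helicase gene bel had the largest difference, 0.93, with 34.8 and 51.2 FPKM under mCherry RNAi against 78.2 and 84.3 FPKM under Piwi RNAi. The smallest was -0.12 for vig2, a paralog of the RISC component vig, whose groups overlapped. The 11th gene of that list, blanks, was under the filter on low values, with a listed 0 in either mCherry RNAi library and with 0.539 and 3.42 FPKM in Piwi RNAi. The 5 chaperone genes that help to load Argonautes had a median of 0.47. They ran from 0.13 for the J-domain protein gene Droj2 to 1.02 for Hop, a cochaperone of Hsp90, which had 23.8 and 46.0 FPKM under mCherry RNAi against 69.0 and 67.6 FPKM under Piwi RNAi.

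**Figure D4:**
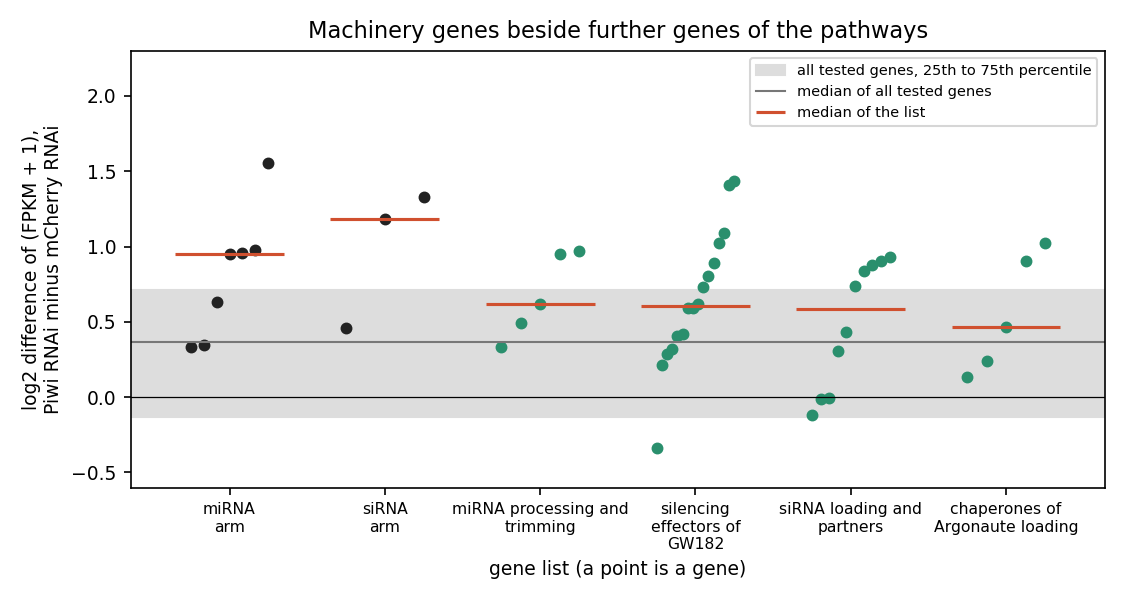
Log2 differences, Piwi RNAi minus mCherry RNAi, of the 7 miRNA arm and 3 siRNA arm genes (black) and of 36 further pathway genes in 4 lists (green), with the median of each list as a red bar and all tested genes as a grey band and line. List medians lie between 0.47 and 1.19, above the median of 0.37 of all tested genes, and no gene passed the limma test.

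Genes with the profile most like each Argonaute gene over the 4 libraries were found by the Euclidean distance between centred log2(FPKM + 1) values, among 3522 named genes whose mean reached 5 FPKM. Nearest to AGO1 were Actr13E, deltaCOP and Nipped-B, at distances of 0.02 to 0.03, with log2 differences of 0.33 to 0.36. Nearest to AGO2 were Nhe2, Rich and rump, at 0.03 to 0.04, with differences of 0.45 to 0.47. With 4 libraries such closeness is a description of these profiles only.

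The products of the miRNA arm were hardly represented in this table. Of 237 rows named as miRNA genes, 233 were listed at 0 in every library, 3 had a value above 0.01 FPKM in any library and 0 had one in at least 2 libraries. No statement on miRNA levels can be drawn from these rows.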

How the data were processed

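The 4 libraries were made with Trizol and a TruSeq kit, per the labels' protocols. The authors deposited 1 table of FPKM values. The submitters' processing notes name TopHat and Cufflinks, and the column names are those of Cufflinks output, per the file headers. For versions, genome build, annotation, strand setting and any scaling among libraries, nothing is given in the sources used here, so no coordinates are given.

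FPKM values are not counts. They were tested with limma 3.58.1 in R 4.3.3 (lmFit, eBayes with a trend, 2 residual and 2.86 prior degrees of freedom) on log2(FPKM + 1) values, as a two-sided test of the 8313 genes whose mean reached 1 FPKM, with Benjamini-Hochberg adjustment and a threshold of 0.05. This scale understates changes of low genes. All 10 machinery genes passed the filter. The p-values measure differences against the spread between libraries, which also takes in counting error.

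Fragment numbers were estimated from the regular steps of low values of single-transcript genes of at least 800 nt, with transcript lengths from Ensembl release BDGP6 less 120 nt. Of such values, 83.1% to 86.2% lay within 0.1 of a whole number, where 20% would by chance. They are approximate.

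The genes and lists were chosen with earlier results of these data known. Named beside the 10 genes were piwi, the genes with the largest and smallest difference of each further list and the 3 profiles nearest to each Argonaute gene. Cdc14, CG7739, esg, Dl, spdo, sna, npf, crq, Tm1, vn, how, Mlc1, wupA and blanks were named after their values were seen. CG1091 and CG11486 carry the names Tailor and PAN3 in the gene name table used here.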

Additional observations from a re-analysis of the deposited data

How the results depend on the processing

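Over 14 alternative settings, 0 of the 10 machinery genes passed the limma test in any, and between 1 and 7 of them had an unadjusted p under 0.05. Of 139 values of single genes, 135 kept their direction. The other 4 were drosha and AGO1, at -0.018 and -0.044 with median of ratios scaling and at -0.10 and -0.10 after an adjustment for transcript length, which was added after the data were seen. The number of genes called over the whole table, 98, went to 0 with no filter on low values, 167 at a mean of at least 5 FPKM, 35 with quantile normalization, 8 with median of ratios scaling, 4 without a trend, 209 with robust eBayes and 0 with length adjustment. With a library left out it ran from 0 to 0, where 638 to 3281 genes had an unadjusted p under 0.05. The median of the miRNA arm, 0.95, went to 0.68 at a pseudocount of 5, 0.55 with quantile normalization, 0.55 with median of ratios scaling and 0.51 with length adjustment, and that of the siRNA arm from 1.19 to 0.75 with length adjustment. With a library left out, the gap between the arm medians ran from -0.68 to 0.054 and the Dcr-1 to Dcr-2 difference from -0.56 to 0.15. The cause of these shifts was not tested. The labels do not say that replicate numbers pair libraries, and the gaps between replicates correlated at 0.25 across genes between the groups. With the replicate number as a block, 194 genes were called, and 0 of the 10, with a smallest adjusted p of 0.0961. At a mean of at least 5 FPKM pasha was not tested. Depth limits pasha and r2d2 most, with about 11 and 7 fragments in their lowest library by the shortest transcript.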
